A study of Mus musculus with 5 samples.

Results

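The 44 genes described here encode the enzymes that build and break down amino acids and the transporters that carry amino acids across the plasma membrane. They were chosen by gene symbol from a list, with no threshold on the array values, and 41 of them had a probe set of their own among the 19938 genes measured. Gls2, Pycr1 and Mat2a were not analysed here. RNA came from whole pancreata at postnatal day 1 of 3 Pdx1cKO mice and 2 control mice, with 1 Mouse Gene 1.0 ST array for each. In Pdx1cKO mice, Cre under the Elastase promoter deletes a loxP-flanked Pdx1 in exocrine cells, so that islet cells and proximal ducts keep the gene. The controls are labelled as not recombined and, by the series title, share a litter with the mutants, but the Cre or loxP alleles of the controls are not stated.

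The acinar cell of the exocrine pancreas secretes large amounts of protein and depends on a steady supply of amino acids, which it takes up from the blood and in part makes itself. The hepatocyte is the main site where surplus amino acids are taken apart and their nitrogen is passed to urea. Several enzymes exist as a cytosolic and a mitochondrial form, or as a form typical of liver and one typical of other tissues.

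The question put to these genes was how their transcripts differed between Pdx1cKO and control pancreata. No member passed an adjusted p of 0.05 in limma's test over all genes (0 lower and 0 higher, as for 0% of all genes), and the smallest adjusted p was 0.280. At an unadjusted p under 0.05, 4 members were lower (9.76%, against 5.04% of all genes) and 3 were higher (7.32%, against 5.29%). After adjustment, the methods' t-test called 0 members as well. The groups did not overlap in 20 members, of which 10 (24.4%) were lower in all 3 mutants, against 11.7% of all genes, and 10 were higher in all 3, against 12% of all genes. Where a log2 fold change of 0.5 or more was also asked for, 6 were lower (14.6%, against 1.88% of all genes) and 6 higher (14.6%, against 2.86%). A log2 fold change of 1 or more was seen downward in 1 member, Gatm (1.09% of all genes), and upward in 3, Mat1a, Cth and Got1 (1.16% of all genes). The groups overlapped in Got1. Genes above the median level hold 38 of the members. Of these 38, 26.3% were lower and 26.3% higher without overlap, at any fold change. The same shares over all genes above the median level were 10.3% and 18.3%. With limma fitted to those brighter genes only, 5.03% of them fell with p below 0.05 before adjustment and 8.46% rose. The 7.32% of members that were higher by this measure was thus not above the share among brighter genes. For the fold change limits of 0.5 and 1, shares were taken over all genes only. Those comparisons therefore do not allow for the members' higher level. In 9 of the 10 lower members control 1 was above control 2, as in 29 of the 41 members and 9653 of 19938 genes. That order held in all 8 acinar, all 7 mesenchyme and all 5 endothelium markers, but in 4 of 11 hepatocyte markers. In 7 of the 10 higher members Pdx1cKO 3 was the lowest mutant, as in 21 of the 41 members and 4769 of 19938 genes. It was lowest in all 11 hepatocyte, 8 granulocyte, 4 erythroid and 5 islet markers measured, and in 0 of the 8 acinar markers. The median log2 fold change was -0.06 over the members and -0.00117 over all genes.

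**Figure D1:**
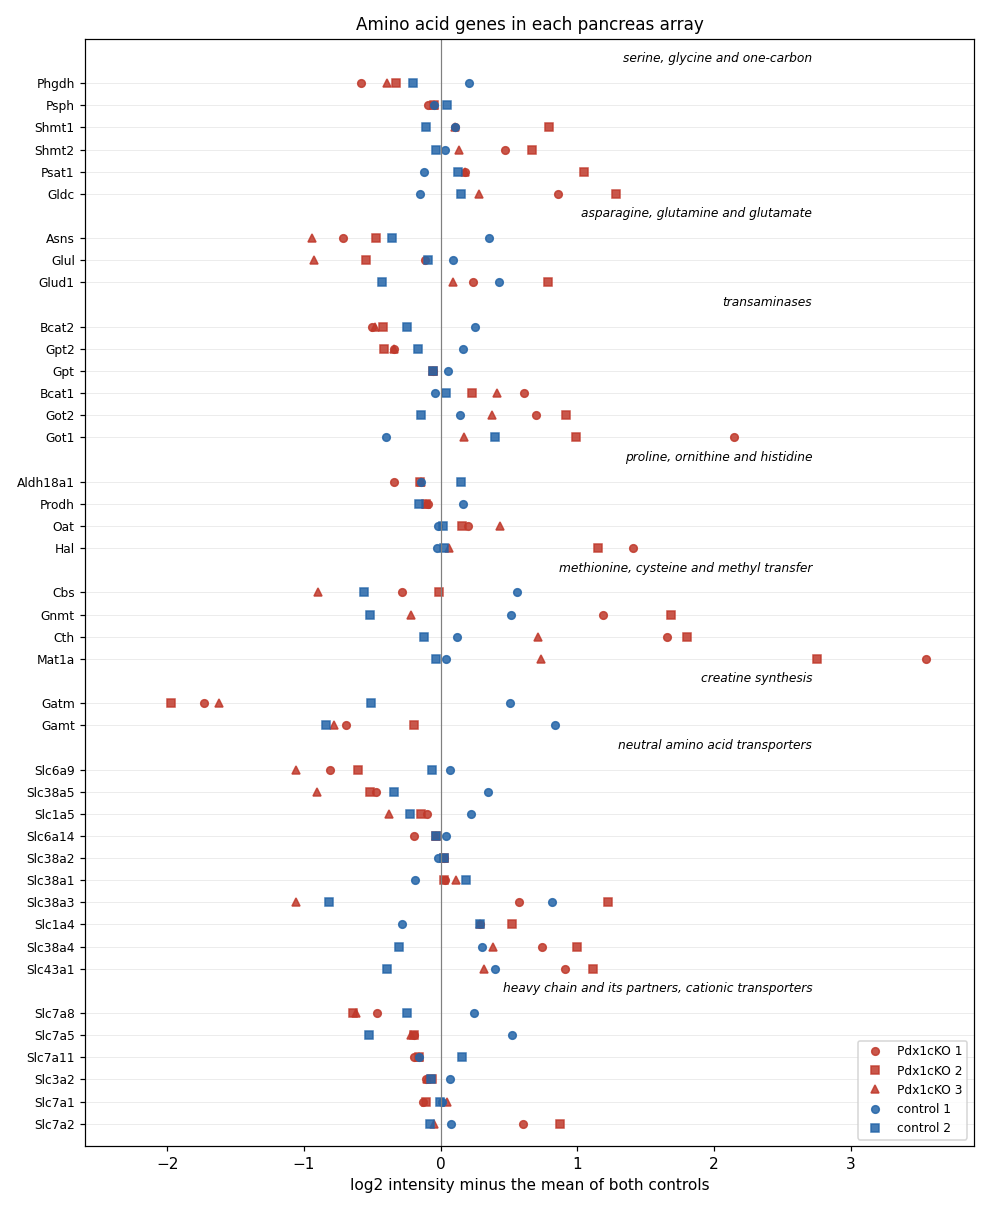
Log2 intensity of each of the 41 measured genes minus the mean of both controls, for each array (red, Pdx1cKO; blue, control; the symbol gives the replicate), grouped by role. Gatm lies farthest to the left in all 3 Pdx1cKO arrays and Mat1a farthest to the right in Pdx1cKO 1 and 2, and 21 of the 41 genes overlap between the groups.

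The arrays differed in transcripts of several tissues. All 8 acinar markers measured, among them Cpa1, Cela1 and Ptf1a, were lower in every Pdx1cKO array, with summed intensities of 9713 to 16001 in Pdx1cKO and 37901 to 52539 in control. Of 11 hepatocyte markers, among them Alb, Fgb and Afp, 10 were higher in every Pdx1cKO array, with sums of 16146 to 42564 in Pdx1cKO and 5556 to 6796 in control, and all 11 were lowest of the Pdx1cKO arrays in Pdx1cKO 3. The 7 stomach markers summed to 11420 in control 2 and to 340 to 414 in the other 4 arrays. Granulocyte markers (8 of 8) and erythroid markers (4 of 4) were higher in every Pdx1cKO array, and islet markers (5 of 5) lower. Pdx1 itself had intensities of 48.4, 48.4 and 42.9 in Pdx1cKO and 67.9 and 112.7 in control, but where its probes lie relative to the deleted part is not stated, so this level does not check the labels. Xist was at 622 and 348.7 in Pdx1cKO 1 and 2, at 44.9 in Pdx1cKO 3 and at 53.4 and 33.5 in the controls, so the sexes were not balanced. In whole tissue, fewer cells of a type and less transcript per cell cannot be told apart.

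Of 8 members known to be abundant in acinar cells, 6 had all Pdx1cKO values below both controls, 1 had them above and 1 overlapped, with a median log2 fold change of -0.52. Over all genes, 11.7% lay below both controls in this way and 12% above. A further 4 members known from both liver and acinar cells, Gnmt, Mat1a, Slc43a1 and Cth, were counted apart. Their log2 fold changes were positive, at 0.89, 2.35, 0.78 and 1.39, with a median of 1.14. The lists were drawn with earlier results of these data known, and the median of -0.52 leaves these 4 out. Per array, the median of the 8 genes, relative to the control mean, was -0.49, -0.45 and -0.55 in Pdx1cKO 1, 2 and 3, against 0.25 and -0.25 in controls 1 and 2. The acinar markers lay lower still, at a median of -1.77 over their 8 genes. The 8 members were Gatm, Asns, Phgdh, Psat1, Bcat2, Slc38a5, Slc3a2 and Slc7a8. The median was -0.26 without control 1 and -0.77 without control 2, so its size turned on which control was used.

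Gatm, the amidinotransferase that joins arginine and glycine in the opening step of creatine synthesis, had the most negative fold change of all members. Its intensity was 429, 362.2 and 463.4 in Pdx1cKO 1, 2 and 3, against 2029.9 and 1001.4 in controls 1 and 2. The groups were well apart, although the controls themselves differed by 1.02 on the log2 scale. The log2 fold change was -1.78 (standard error 0.364, 95% confidence interval -2.82 to -0.73, unadjusted p = 0.0101, adjusted p = 0.293 from limma), a 3.43-fold lower level, which placed it at rank 72 of 19938 genes from the lowest. It was -1.27 without control 1 and -2.29 without control 2, and passed only in the last of these fits, in which the single control takes its spread from the mutants (limma, adjusted p = 0.0264). In Pdx1cKO 3 alone, the log2 fold change against the controls was -1.62. That mutant array had the least hepatocyte signal, the most acinar signal and, unlike the other mutants, Xist near the level of the controls.

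Gamt, the methyltransferase that completes creatine, had 261.4, 369.9 and 245.8 in the Pdx1cKO arrays, against 756.5 in control 1 and 236.2 in control 2. All Pdx1cKO values thus lay between those of the controls. Its log2 fold change was -0.56 with a 95% confidence interval of -2.29 to 1.18 from limma.

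**Figure D2:**
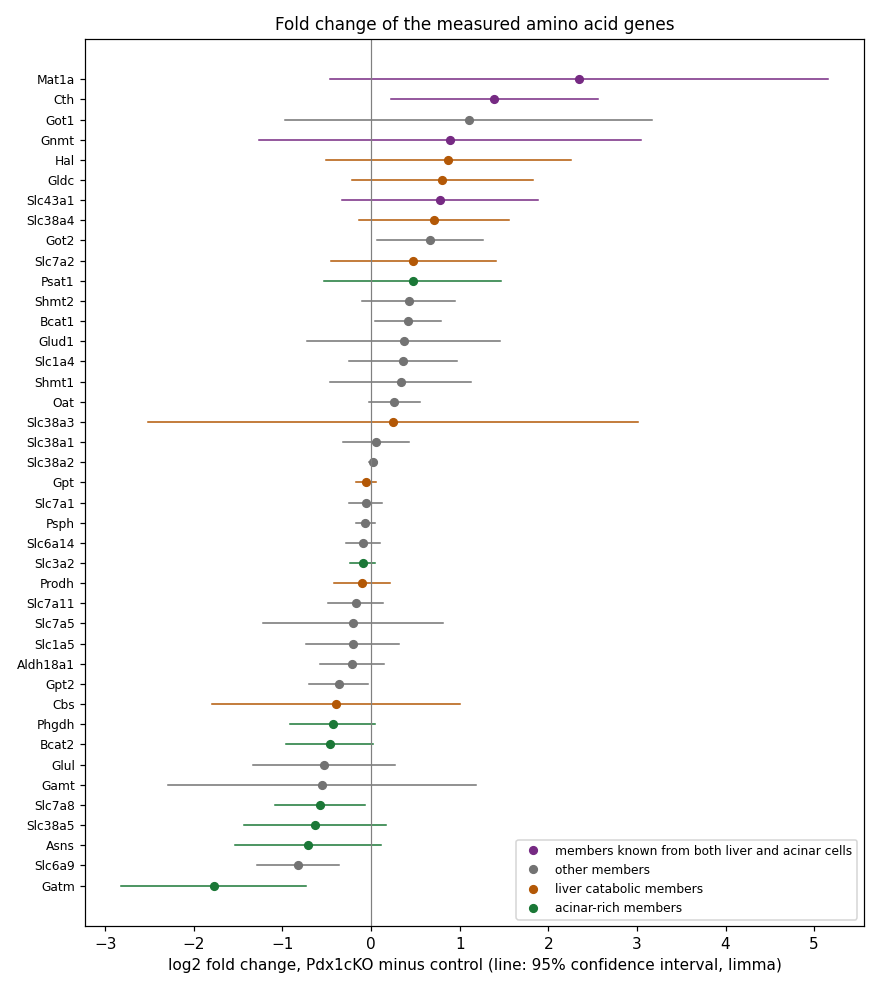
Log2 fold change of each measured gene, Pdx1cKO minus control (point), with the 95% confidence interval from limma (line), coloured by the tissue the gene is known from. Gatm is lowest at -1.78 and Mat1a highest at 2.35, and the intervals of Gatm, Slc6a9, Slc7a8 and Gpt2 lie wholly below 0 and those of Cth, Got2 and Bcat1 wholly above it.

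Asns, asparagine synthetase, makes asparagine from aspartate and glutamine. It had 516.8, 611.9 and 440.7 in the Pdx1cKO arrays, against 1084.2 and 664.5 in the controls. Its groups did not overlap, but the gap between Pdx1cKO 2 and control 2 was small next to that between the controls, and the log2 fold change was -0.71 (95% confidence interval -1.53 to 0.11, unadjusted p = 0.0733 from limma). Glul, glutamine synthetase, had 927.7, 691.1 and 530.3 in Pdx1cKO and 1071.6 and 946.5 in control. Its Pdx1cKO values were spread, with Pdx1cKO 1 close to control 2, and its log2 fold change was -0.53 (limma 95% confidence interval -1.33 to 0.27). Glud1, which turns glutamate into 2-oxoglutarate, overlapped at a log2 fold change of 0.37.

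Serine is made from a glycolytic intermediate by Phgdh, Psat1 and Psph in turn. Phgdh had 109, 130.3 and 124.3 in Pdx1cKO and 188.4 and 141.7 in control, a log2 fold change of -0.43. Psat1, the next enzyme, lay the other way at 0.47, with 295.9 in Pdx1cKO 2, 162.2 in Pdx1cKO 1 and 3, and 131.4 and 156.1 in the controls. Only Pdx1cKO 2 stood clearly apart. Psph, the last enzyme, was near equal at -0.07 (limma 95% confidence interval -0.18 to 0.04). The enzymes of this path therefore did not share a direction, and none of the 3 passed an unadjusted p of 0.05.

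Asns is a known target of ATF4, the transcription factor that cells make when amino acids run short, and ATF4 binds a composite element with the core TGATGNAA. This core was searched on both strands (TTNCATCA on the other) from 250 bases before to 50 bases after each RefSeq start in GRCm38.p6. Of the 35 members with an entry, 5 held it (14.3%), against 4.51% of 27025 genes: Asns, Slc7a11, Slc1a4, Got1 and Pycr1. For the 4 that were measured, a stretch around the core is shown to place it (in Slc1a4 the core itself runs across the start), 5′ to 3′ on the gene's strand, with the match in capitals. All 4 genes lie on the minus strand.
Asns, chr6:7693210-7693268: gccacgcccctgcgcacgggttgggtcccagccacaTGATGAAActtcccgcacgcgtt
Slc7a11, chr3:50443617-50443715: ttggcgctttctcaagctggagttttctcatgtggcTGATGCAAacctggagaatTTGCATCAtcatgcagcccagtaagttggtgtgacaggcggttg
Slc1a4, chr11:20332710-20332753: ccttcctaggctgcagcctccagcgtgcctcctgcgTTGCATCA
Got1, chr19:43524664-43524743: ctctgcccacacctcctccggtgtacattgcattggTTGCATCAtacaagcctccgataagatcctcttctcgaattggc

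The core began 23 bases before the start in Asns, 66 and 47 bases before it in Slc7a11, where the 2 matches face each other on opposite strands without overlap, 102 bases before it in Got1, and at 4 bases before it in Slc1a4. The start used for Slc7a11 lies inside the annotated gene, which spans chr3:50364936-50499087, so it is not the outermost start of that gene. A match is a description of these letters and not of a bound site. The log2 fold changes of the 4 genes were -0.71 for Asns, -0.17 for Slc7a11, the cystine transporter, 0.36 for Slc1a4, a carrier of alanine, serine and cysteine, and 1.10 for Got1. All 4 of their 95% confidence intervals from limma spanned 0, so neither a shared nor a differing direction can be read from them. The interval of Got1 ran from -0.97 to 3.17 (unadjusted p = 0.206 from limma) and its groups overlapped. With Pdx1cKO 3 alone, Got1 was at 0.17. Slc7a11 had 32.4 to 33.3 in Pdx1cKO and 33.3 and 41.5 in control, with overlapping groups.

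Atf4 itself had 118.4, 112.7 and 119.3 in Pdx1cKO and 125.5 and 140.8 in control, a log2 fold change of -0.19 (unadjusted p = 0.0485, adjusted p = 0.478 from limma). Of 14 regulators of the amino acid response, 2 were lower at an unadjusted p under 0.05 and 0 higher (5.04% and 5.29% of all genes), with a list median of -0.03. The other was Eif2ak3, the ER stress kinase PERK, at -0.49 (unadjusted p = 0.00760, adjusted p = 0.272 from limma), with 164.6, 147.2 and 167.4 in Pdx1cKO against 237.7 and 209.8 in control. Sesn2 and Atf3 came next by p, with log2 fold changes of 0.19 and 0.60 and overlapping groups.

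Among the neutral amino acid transporters, Slc6a9, the glycine transporter GlyT1, had the smallest p of all members. Its intensity was 236.1, 272.3 and 198.6 in Pdx1cKO, against 434.5 and 396 in control. Here the controls lay close together (SD 0.0949 on the log2 scale, n = 2) and all mutants well below them (SD 0.228, n = 3). The log2 fold change was -0.83 (standard error 0.160, 95% confidence interval -1.29 to -0.37, unadjusted p = 0.00832, adjusted p = 0.280 from limma), a 1.77-fold lower level. It ranged from -1.06 to -0.71 over the alternatives tried.

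Slc38a5, a glutamine and histidine carrier of acinar cells, had 179, 173.4 and 133.1 in Pdx1cKO and 315.6 and 196.2 in control, a log2 fold change of -0.63 (95% confidence interval -1.44 to 0.17 from limma). Slc7a8, the neutral amino acid exchanger LAT2, had 252.7, 223.8 and 227.5 in Pdx1cKO and 414 and 295.2 in control, a log2 fold change of -0.58 (95% confidence interval -1.08 to -0.07, unadjusted p = 0.0347, adjusted p = 0.423 from limma). For both, the mutants formed a tighter group than the controls. Slc3a2, the heavy chain with which Slc7a8, Slc7a5 and Slc7a11 pair, was near equal in the groups at -0.09 (95% confidence interval -0.23 to 0.05 from limma).

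Slc7a5, the large neutral amino acid exchanger LAT1, had 482.4, 482.4 and 475.9 in the Pdx1cKO arrays, against 794.7 in control 1 and 385.2 in control 2. The mutants were almost equal and lay between the controls. The log2 fold change was -0.20 over all arrays, 0.32 without control 1 (adjusted p = 0.00688 from limma) and -0.73 without control 2 (adjusted p = 0.00223 from limma), so that it passed in opposite directions. Gatm, Gamt, Gnmt, Cbs, Slc7a5 and Slc38a3 were the 6 members (14.6%) whose controls differed by 1 or more on the log2 scale, as 2.61% of all genes did, and in all 6 control 1 was higher.

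The remaining transporters were mostly level. Slc38a2, a glutamine carrier induced when amino acids are scarce, had 1009.4 in all 3 mutants and in control 2 and 979.4 in control 1. Identical values of this kind are common in the deposited table, where 67.6% of probe sets have 2 or more arrays at exactly the probe set's median. Slc7a1, Slc1a5 and Slc38a1 had log2 fold changes of -0.06, -0.21 and 0.06, and Slc6a14, a broad neutral and cationic carrier, was at 22.8 to 25.5 in Pdx1cKO and 25.5 and 26.8 in control. Slc43a1, the branched-chain carrier LAT3 of liver and pancreas, was at 0.78 and Slc7a2, a carrier of arginine and lysine, at 0.48, both with overlapping groups.

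**Figure D3:**
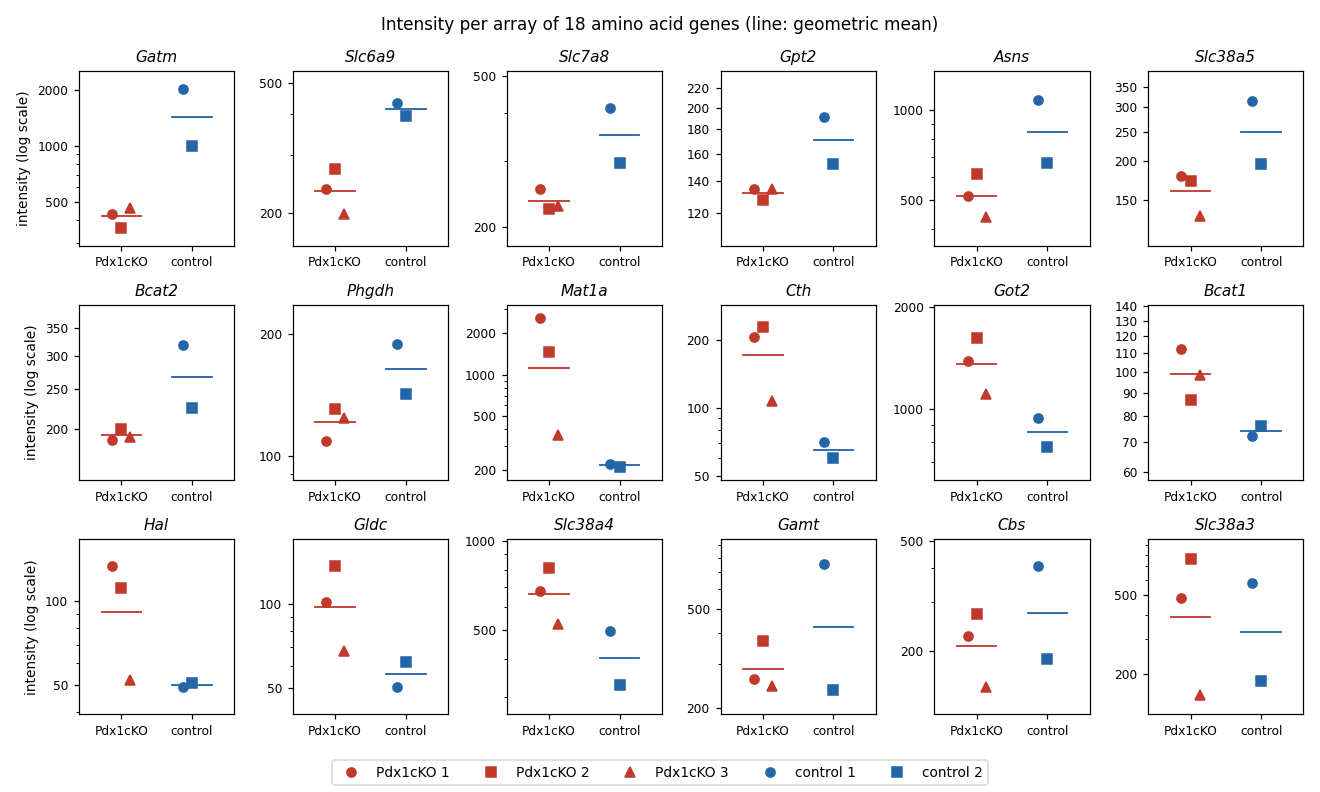
Intensity on a log scale of 18 of the genes in each array (red, Pdx1cKO; blue, control; symbol, replicate; line, geometric mean), with its own axis range for each gene. The top row and Bcat2 and Phgdh have all mutants below both controls, Mat1a to Slc38a4 have all mutants above, and Gamt, Cbs and Slc38a3 overlap.

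Enzymes of methionine and cysteine metabolism included the largest positive differences. Mat1a, the liver form of the enzyme that makes S-adenosylmethionine, had 2572.1, 1473.6 and 364.3 in Pdx1cKO 1, 2 and 3, against 224.5 and 213.3 in the controls. The controls were alike (SD 0.0522, n = 2) while the mutants spanned a wide range (SD 1.45, n = 3), with Pdx1cKO 3 nearest to the controls. The log2 fold change was 2.35 (standard error 0.978, 95% confidence interval -0.46 to 5.16, unadjusted p = 0.0799, adjusted p = 0.515 from limma), at rank 49 of 19938 genes from the highest. With Pdx1cKO 3 alone against the controls it was 0.74.

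Cth, which splits cystathionine to give cysteine, had 206.2, 228.1 and 107.4 in Pdx1cKO and 71.1 and 60.2 in control. Its log2 fold change was 1.39 (standard error 0.405, 95% confidence interval 0.23 to 2.56, unadjusted p = 0.0301, adjusted p = 0.400 from limma), and 0.72 with Pdx1cKO 3 alone. Gnmt, which uses S-adenosylmethionine to methylate glycine and is abundant in liver and exocrine pancreas, had 273.4, 386.1 and 103.1 in Pdx1cKO and 171.3 and 83.9 in control. It overlapped at a log2 fold change of 0.89 and was at -0.22 with Pdx1cKO 3 alone. Cbs, the enzyme before Cth, had 225.9, 271.7 and 147 in Pdx1cKO and 404.8 and 185.8 in control, a log2 fold change of -0.40 with a 95% confidence interval from -1.80 to 1.00 (limma). Of these 4 genes all were lowest of the mutants in Pdx1cKO 3, as all hepatocyte (11), granulocyte (8), erythroid (4) and islet (5) markers were.

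Of 8 members known mainly from amino acid breakdown or uptake in liver (Hal, Prodh, Gldc, Gpt, Cbs, Slc38a3, Slc38a4 and Slc7a2), 3 had all Pdx1cKO values above both controls and 5 overlapped, where 12% of all genes, and 18.3% of those above the median level, lay above. Their median log2 fold change was 0.36. Per array the median was 0.59, 0.94 and -0.05 in Pdx1cKO 1, 2 and 3, and 0.12 and -0.12 in controls 1 and 2. Pdx1cKO 3 therefore lay within the range of the controls for this list, and the median was -0.05 with that array alone and 0.81 without it. The hepatocyte markers, at 2.90, 3.16 and 1.54 in Pdx1cKO 1, 2 and 3, followed the same order. So did the granulocyte markers, at 2.29, 2.94 and 1.64, and the erythroid markers, at 1.61, 2.24 and 0.93. The part of any of these in the liver catabolic values was not tested.

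Hal, histidine ammonia-lyase, had 133.1, 111.3 and 52.3 in Pdx1cKO and 49.3 and 51 in control. Pdx1cKO 3 was at the level of the controls, and the log2 fold change was 0.87 (limma 95% confidence interval -0.51 to 2.26). Gldc, the decarboxylase of the glycine cleavage system, had 101.5, 136.2 and 68 in Pdx1cKO and 50.5 and 62.3 in control, a log2 fold change of 0.81 (limma 95% confidence interval -0.21 to 1.82). Slc38a4, a neutral and cationic amino acid carrier of hepatocytes, had 676.5, 808.8 and 526.7 in Pdx1cKO and 499.1 and 327.2 in control, at 0.71. Slc38a3, a glutamine carrier of liver, kidney and pancreas, was counted in the liver list although it is also known from pancreas. It varied widely within both groups, with 486.2, 765.9 and 157.3 in Pdx1cKO and 575.6 and 185.8 in control. Prodh, which starts proline breakdown, was at -0.10.

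**Figure D4:**
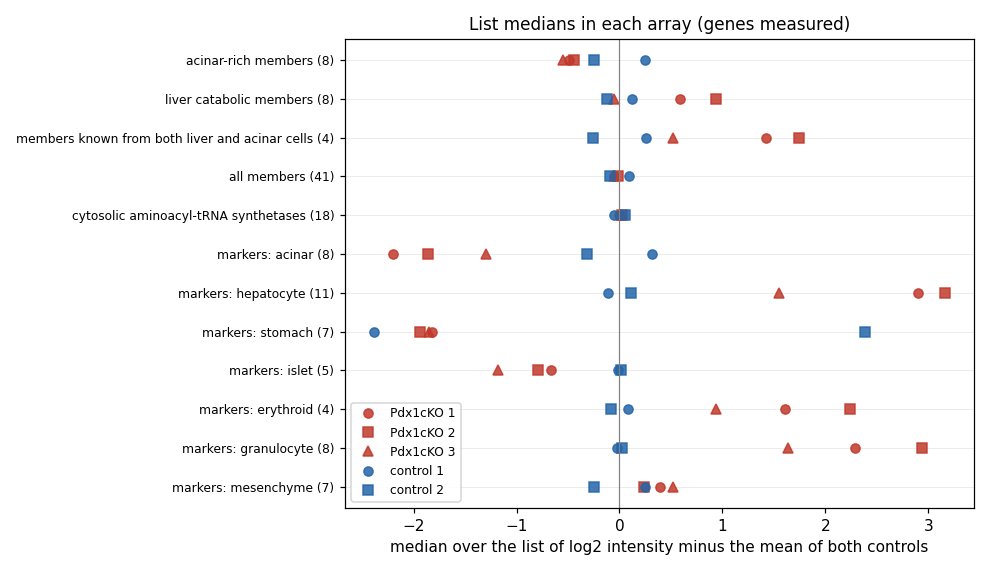
Median over each gene list of log2 intensity minus the mean of both controls, for each array (red, Pdx1cKO; blue, control; symbol, replicate; number of genes measured in brackets). The acinar-rich members lie left of both controls in all 3 mutants at -0.55 to -0.45. The liver catabolic members lie right of the controls in Pdx1cKO 1 and 2 only, at 0.59 and 0.94. The members known from both liver and acinar cells, a list of their own, lie right of the controls in all 3 mutants at 0.52 to 1.74.

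Paired forms of an enzyme or carrier were then compared by their log2 ratio within each array, over 6 pairs, with an exact two-sided permutation test that cannot give a p below 0.1 for 3 against 2 arrays. Bcat1 and Bcat2, the cytosolic and mitochondrial branched-chain aminotransferases, lay in opposite directions. Bcat1 had 112.7, 86.9 and 98.6 in Pdx1cKO and 72 and 76 in control (log2 fold change 0.42, unadjusted p = 0.0358, adjusted p = 0.426 from limma). Bcat2, the form of acinar cells, had 188.5, 199.7 and 191.5 in Pdx1cKO and 317.4 and 224.5 in control (log2 fold change -0.47, unadjusted p = 0.0574 from limma). Their log2 ratio did not overlap between the groups, with a difference of 0.89 (exact permutation p = 0.1, adjusted over the pairs 0.3).

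Gpt and Gpt2, the cytosolic and mitochondrial alanine transaminases, also differed without overlap, by 0.31 (exact permutation p = 0.1, adjusted 0.3). Gpt was at 42 in all 3 mutants and control 2 and at 45.4 in control 1, whereas Gpt2 had 134.6, 128.1 and 134.6 in Pdx1cKO and 191.3 and 152.3 in control (log2 fold change -0.37, unadjusted p = 0.0369, adjusted p = 0.430 from limma). The difference in this pair thus came mainly from Gpt2. Got2, the mitochondrial aspartate transaminase, had 1385.2, 1620.2 and 1109.7 in Pdx1cKO and 945.3 and 775.5 in control, a log2 fold change of 0.66 (95% confidence interval 0.06 to 1.26, unadjusted p = 0.0377, adjusted p = 0.435 from limma). Got1, the cytosolic form, had 1213.6, 545.1 and 308.6 in Pdx1cKO and 207.8 and 361.8 in control, and its ratio to Got2 overlapped (difference 0.44, exact permutation p = 0.7, adjusted 0.84).

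Shmt1 and Shmt2, which split serine into glycine and a folate-bound carbon in the cytosol and in mitochondria, had log2 fold changes of 0.33 and 0.43 and a difference of -0.09 (exact permutation p = 0.9, adjusted 0.9). Shmt1 had 102, 164.2 and 102 in Pdx1cKO and 102 and 88.2 in control, and Shmt2 had 184.7, 211 and 145.9 in Pdx1cKO and 136.1 and 129.9 in control. Both were highest in Pdx1cKO 2. For Slc38a3 against Slc38a5 the difference was 0.88 (exact permutation p = 0.4, adjusted 0.6), and for Slc7a5 against Slc7a8 it was 0.37 (exact permutation p = 0.2, adjusted 0.4). Neither ratio separated the groups.

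The genes left among the members deal with proline and ornithine. Oat, ornithine aminotransferase, had 661.2, 641.3 and 775.2 in Pdx1cKO and 567.5 and 582.6 in control, a log2 fold change of 0.26 (95% confidence interval -0.02 to 0.55, unadjusted p = 0.0634 from limma). Of the 10 members that lay above both controls in every mutant, it was the only one with its highest value in Pdx1cKO 3. Aldh18a1, which starts proline synthesis from glutamate, was at -0.21 with overlapping groups.

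Further genes of amino acid metabolism were read as whole lists, against shares over all genes of 12% above and 11.7% below both controls, and of 5.29% higher and 5.04% lower at an unadjusted p under 0.05. Of 32 other breakdown genes, 7 lay above both controls in every mutant and 1 below, with 1 higher and 0 lower by that p and a median of 0.27. Those with the smallest p were Aldh4a1 of proline breakdown at 0.38 (unadjusted p = 0.0432 from limma), Kmo of tryptophan breakdown at 1.10, Hpd of tyrosine breakdown at 2.65 and Gcat, which takes part in threonine breakdown, at -0.84. Hpd had 870.4, 770.2 and 168.3 in Pdx1cKO and 102.2 and 58 in control, and Gcat had 107.9, 134 and 109.7 in Pdx1cKO and 281.7 and 154 in control. Hpd was lowest of the mutants in Pdx1cKO 3, as all hepatocyte, granulocyte, erythroid and islet markers were.

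Of 15 other genes of synthesis and one-carbon metabolism, 4 lay above both controls in every mutant and 0 below, with 2 higher at an unadjusted p under 0.05. These were Bhmt, which remethylates homocysteine in liver, at 2.49 (unadjusted p = 0.0194, adjusted p = 0.352 from limma) and Cdo1, which oxidises cysteine, at 1.02 (unadjusted p = 0.0202, adjusted p = 0.355 from limma). Bhmt had 371.7, 363 and 120.5 in Pdx1cKO and 44.3 and 46.3 in control. Bhmt2 was at 1.93 and Mthfd1l at 0.11. Of 24 other transporters, 0 passed an unadjusted p of 0.05 in limma, 4 lay above and 3 below both controls, which is near the shares over all genes, and the median was -0.03. Slc6a13 was at 1.65, Slc6a20a at -0.42, Slc7a7 at -0.26 and Slc1a2 at 0.03.

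The 18 cytosolic aminoacyl-tRNA synthetases, which load amino acids onto tRNA, were nearly level, with a median log2 fold change of 0.00458 and 17 of 18 under 0.5 in size. The exception was Wars, the tryptophanyl-tRNA synthetase, which is itself abundant in pancreas, with 209.8, 231.1 and 236.9 in Pdx1cKO and 343.3 and 308.9 in control. Its log2 fold change was -0.53 (95% confidence interval -0.76 to -0.30, unadjusted p = 0.00379, adjusted p = 0.236 from limma). Sars, Cars and Eprs followed at -0.06, -0.11 and 0.12.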

How the data were processed

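RNA of whole pancreas was hybridised at postnatal day 1, with each of the 5 mice on an array of its own. The authors deposited linear intensities for 28853 probe sets, and the submitters' processing notes name GeneSpring GX 12.1. How background was corrected and values were normalized and summarised is not stated in any source used. Array medians of 61.0 to 61.9 show that values had been scaled between arrays. Detection calls were not used here, so dim genes may lie at background, and the number of arrays limits the precision. Paralog ratios and marker sums combine the levels of different probes and are compared between arrays only. Bright probes weigh most in the sums.

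Log2 was taken without a pseudocount. In the platform annotation 21789 probe sets had 1 gene symbol, 1621 had several and 5443 were unnamed here. Those with 1 symbol were averaged into 19938 genes, and Glul, Got2 and Slc38a1 have 2 probe sets each. The contrast of Pdx1cKO minus control was fitted in limma 3.58.1 under R 4.3.3 (lmFit, eBayes, Benjamini-Hochberg over all genes, threshold 0.05). On simulated data, the fit was required only to return the size of planted fold changes. That check does not bear on how many changed genes would pass the threshold.

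Members and lists were chosen with earlier results of these data known. All 5 values are given for members without overlap and a log2 fold change of at least 0.5 in size, members at an unadjusted p under 0.05 and paralog pairs, and the 4 smallest p of each other list are named. Further per-array values were chosen after they were seen. Promoter sequences are from RefSeq (GRCm38.p6), which held 35 of the 44 members. The alternatives were median and quantile scaling, 2 filters on dim genes, the brightest probe set, other eBayes settings (trend, robust), array weights, Student's test as named in the methods, a pseudocount of 32, a replicate block, leaving out each array, and Pdx1cKO 3 alone.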

Additional observations from a re-analysis of the deposited data

How the results depend on the processing

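The counts turned mostly on the controls. Over all genes, leaving out 1 array gave 0 to 2072 lower and 0 to 1604 higher calls, all of them without control 1 (1783 and 1604) or control 2 (2072 and 995), where the one control left takes its spread from the mutants. Student's test of the methods gave 7 and 3. Among the members, 0 to 6 were lower and 0 to 1 higher at an adjusted p over the left-out arrays. Without control 2, Gatm, Bcat2, Gpt, Gpt2, Slc7a5 and Prodh were lower and Slc38a2 higher, and without control 1, Slc7a11 was lower and Slc7a5 higher. Members lower at an unadjusted p numbered 7 with quantile normalization, 2 with array weights, 2 by Student's test, 2 with Pdx1cKO 3 alone and 2 to 13 over the left-out arrays (13 without control 2). Those higher numbered 0 with array weights, 0 by Student's test and 1 to 8 over the left-out arrays (8 without Pdx1cKO 3). Without overlap, 10 to 18 members were lower (18 without control 2) and 10 to 18 higher (18 without control 1) over the left-out arrays.

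Over the left-out arrays, the median of the acinar-rich members was -0.77 to -0.26, that of the liver catabolic members 0.11 to 0.81 and that of all members -0.0590 to 0.0786. With Pdx1cKO 3 alone the liver catabolic median was -0.0519. The median of all members was 0.0391 among genes above the median level and 0.0218 above the lower quartile. The main fit assumed no pairing by replicate number. The deviations of same-numbered arrays correlated at 0.033 and -0.003. With 2 controls, whose deviations mirror each other, these values cannot show whether pairs exist. With the replicate block, 5 members were higher and 3 lower at an unadjusted p (0 at an adjusted p in limma), and the liver catabolic median was 0.81.

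Signs turned for small values or with 1 array. Median scaling put Slc38a2 at -0.00460. With Pdx1cKO 3 alone, Slc38a3 was at -1.06, Gnmt at -0.22, Slc7a1 at 0.0464, Slc7a2 at -0.0483, Got1 minus Got2 at -0.20 and Slc38a3 minus Slc38a5 at -0.15. Without control 2 and without control 1, the log2 fold changes were -1.40 and 0.28 for Gamt, -0.0590 and 0.80 for Glud1, -0.96 and 0.16 for Cbs, -0.43 and 0.0171 for Slc1a5, -0.73 and 0.32 for Slc7a5, 0.24 and -0.13 for Slc38a1, -0.57 and 1.06 for Slc38a3, and -0.27 and 0.0586 for Prodh. Slc38a3 was also at -0.24 without Pdx1cKO 2. Got1 minus Got2 ranged from -0.10 without control 1 to 0.98 without control 2, with -0.0661 without Pdx1cKO 1, and Shmt1 minus Shmt2 from -0.20 without Pdx1cKO 2 to 0.0477 without Pdx1cKO 1. The causes were not tested.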
